A study of Mus musculus with 9 samples.

Results

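Bdh1, Oxct1 and Acat1, the genes of 3 mitochondrial enzymes that interconvert, activate and split ketone bodies, were described in the renal cortex of mice. They were chosen by name for their place in this pathway, and are 3 of the 21950 genes with mRNA values. All 3 passed the filter on low values, a mean over the libraries of at least 0.1 FPKM (read fragments scaled to transcript length and to library size), which left 14537 genes. The study set male C57BL/KsJ mice in 3 groups of 3, each library coming from the renal cortex of 1 mouse at 15 weeks of age. The control group consisted of db/m littermates, heterozygous for the db mutation of the leptin receptor, and whether they were gavaged is not stated. The dbdb group was homozygous for db and received vehicle by gavage. The dbR group was also homozygous for db and was gavaged with rosiglitazone, which activates the nuclear receptor PPARγ, at a dose of 20 mg/kg/day from week 7 of life and for 8 weeks. All mice carried at least 1 db allele in every cell, and no group of wild-type or of rosiglitazone-treated db/m mice was analysed here. The line is also named for the Dock7m allele, whose state in each group the labels do not give.

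The liver makes ketone bodies from acetyl-CoA when fatty acids are oxidised faster than the citric acid cycle takes up the product, and the kidney is among the organs that burn them. In a cell that uses them, BDH1 oxidises β-hydroxybutyrate to acetoacetate, OXCT1 moves coenzyme A from succinyl-CoA to acetoacetate, and ACAT1 splits the resulting acetoacetyl-CoA into acetyl-CoA. BDH1 and ACAT1 work in both directions and also serve synthesis, whereas OXCT1 serves only their use. ACAT1 also performs the last step of isoleucine breakdown.

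In dbdb mice all 3 genes were below their control level, and so were they in dbR mice. The sequence just before the start sites of Bdh1 and Oxct1 is shown because both were lower in db/db mice and because Bdh1 is read from several starts. On the plus strand of GRCm38, Bdh1 lies at chr16:31422280-31458901 and Oxct1 at chr15:4026383-4155344, and Acat1 lies on the minus strand at chr9:53580522-53610382. Of the 3 genes 2 were matched to RefSeq start sites (GRCm38.p6), Bdh1 with 2 and Oxct1 with 1, and of each the 200 bases that end 51 bases before the start are printed, all outside the transcript of that start, with CG dinucleotides in capitals.
Bdh1 upstream start, chr16:31422047-31422246: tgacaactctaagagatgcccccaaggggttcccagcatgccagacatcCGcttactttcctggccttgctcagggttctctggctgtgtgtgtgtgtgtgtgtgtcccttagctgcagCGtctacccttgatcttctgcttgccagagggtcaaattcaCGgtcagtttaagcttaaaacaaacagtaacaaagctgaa
Bdh1 downstream start, chr16:31428503-31428702: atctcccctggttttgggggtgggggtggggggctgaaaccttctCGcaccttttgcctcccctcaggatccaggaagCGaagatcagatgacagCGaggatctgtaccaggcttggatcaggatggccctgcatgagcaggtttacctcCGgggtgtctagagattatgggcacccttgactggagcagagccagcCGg
Oxct1 start, chr15:4026178-4026377: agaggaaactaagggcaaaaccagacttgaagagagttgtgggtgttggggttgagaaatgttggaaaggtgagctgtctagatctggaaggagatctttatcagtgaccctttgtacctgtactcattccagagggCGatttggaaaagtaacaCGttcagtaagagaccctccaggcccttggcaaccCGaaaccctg
These stretches hold 3, 5 and 3 CG dinucleotides, against a median of 4 over 32851 such stretches of annotated start sites. The letters of 6 motifs were searched on both strands, and none of the 3 stretches printed, of Bdh1 and Oxct1, held any of them, while Acat1 was not searched. The motifs were DR1, the direct repeat bound by PPAR and RXR, which is AGGTCA, any base (N) and AGGTCA again (in 0.0244% of all stretches), AGGTCA alone, which DR1 contains (11.4%), TATAAA (9.14%), CCAAT (28.4%), GGGCGG (24.6%) and CACGTG (4.34%). A motif closer to the start than 51 bases, or farther away than the stretch, could not be found. DR1 in these exact letters is so rare that its absence says little.

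Bdh1, the dehydrogenase gene, read 50.2, 38.4 and 67.5 FPKM in the control mice, 12.7, 13.1 and 16.0 FPKM in the dbdb mice and 14.7, 11.2 and 12.8 FPKM in the dbR mice. The lowest control mouse was above every db/db mouse, and the dbdb and dbR mice overlapped. The mean level was 52.0 ± 14.6 FPKM in control (SD, n = 3), 13.9 ± 1.84 FPKM in dbdb and 12.9 ± 1.76 FPKM in dbR. Bdh1 thus lay above 89.7% of the tested genes in control cortex and above 66.7% of them in dbdb cortex.

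Oxct1, the transferase gene, was among the most abundant mRNAs of the cortex, above 99.2% of the tested genes in control and 98.8% in dbdb mice. It read 567.6, 552.1 and 639.7 FPKM in control, 358.0, 363.1 and 387.6 FPKM in dbdb and 355.5, 362.7 and 391.2 FPKM in dbR mice. Control mice were again all above the db/db mice, and the values of dbdb and dbR mice interleaved. The means were 586 ± 46.7, 369.6 ± 15.8 and 369.8 ± 18.9 FPKM (SD, n = 3).

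Acat1, the thiolase gene, read 239.7, 231.0 and 265.6 FPKM in control, 145.8, 133.7 and 136.4 FPKM in dbdb and 154.6, 167.0 and 170.2 FPKM in dbR mice. It was the one of the 3 whose groups all stood apart, with dbR between dbdb and control. The means were 245 ± 18.0, 139 ± 6.33 and 164 ± 8.24 FPKM (SD, n = 3). Control replicate 3 was the highest library for each of the 3 genes, and its relative depth was 1.02, against 0.951 in control replicate 2 (control replicate 1 is 1 by definition). Its summed mRNA FPKM, 730057, was the highest of the 9 libraries, against 681302 and 675346 in control replicates 1 and 2.

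**Figure D1:**
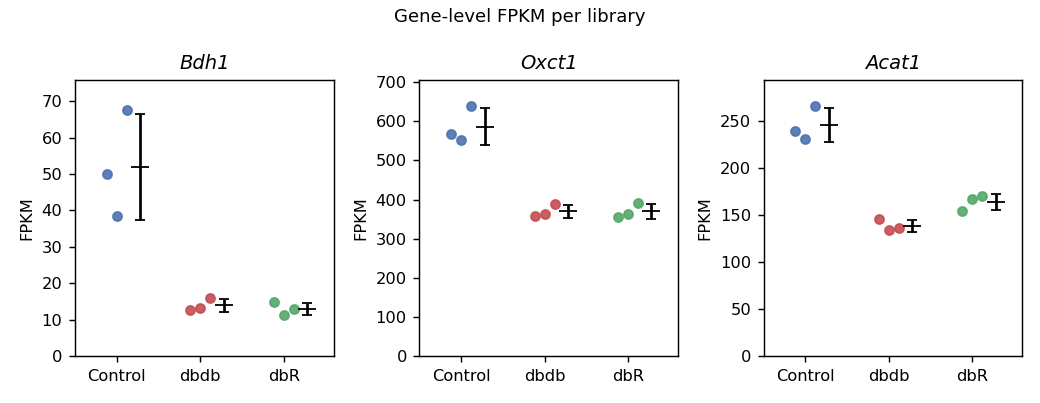
Gene-level FPKM (y axis, linear from 0) of Bdh1, Oxct1 and Acat1 in each control, dbdb and dbR library (x axis). Points are mice and the black bars are the mean ± SD of 3 mice. Every control mouse lies above every db/db mouse for each gene, and Acat1 is 154.6 to 170.2 FPKM in dbR against 133.7 to 145.8 in dbdb mice.

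The first comparison, dbdb vs. control, addresses what differs in the cortex of diabetic mice. All 3 genes were called lower with limma (adjusted p under 0.05, adjustment over all 14537 genes), where 13.4% of all tested genes were called lower. The control mice were above all dbdb mice for each of them, as for 21.2% of all tested genes. Bdh1 fell by 1.86 on the log2 scale (SE 0.18, 95% interval -2.28 to -1.45), which left 0.275 of the control level, with a limma adjusted p of 0.000123. By absolute change it ranked 130 of 14537. Acat1 fell by 0.82 (SE 0.07, interval -0.98 to -0.67, limma adjusted p = 5.43e-05), to 0.566 of control. Oxct1 fell by 0.66 (SE 0.08, interval -0.83 to -0.49, limma adjusted p = 0.00026), to 0.631 of control. The interval of Bdh1 does not reach those of Acat1 and Oxct1, which overlap each other, and the difference between genes was not itself tested. Without control replicate 3 the changes were -1.66, -0.76 and -0.60 for Bdh1, Acat1 and Oxct1, and each was still called. The median change of all genes was -0.00, and 26.4% of them were called in either direction.

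The second comparison, dbR vs. dbdb, addresses what rosiglitazone changed in db/db mice. None of the 3 genes was called by limma, where 0.743% of all tested genes were, in either direction, and 17.5% had an unadjusted p under 0.05. Bdh1 differed by -0.11 (interval -0.52 to 0.30, limma adjusted p = 0.804) and Oxct1 by 0.00 (interval -0.17 to 0.17, limma adjusted p = 0.998). Acat1 was 0.24 higher in dbR mice (interval 0.09 to 0.40), 1.18 times the dbdb level, with an unadjusted p of 0.00635 and an adjusted p of 0.126 from limma. Its dbR mice were all above its dbdb mice, as for 10.7% of all tested genes. Over 18 alternative settings the adjusted p of Acat1 ran from 0.0538 to 0.335.

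The dbR and control mice were set side by side to see where treated mice stood. All 3 genes were called lower in dbR than in control mice, where 11.8% of tested genes were called lower. The change was -1.97 for Bdh1 (limma adjusted p = 9.63e-05), -0.66 for Oxct1 (limma adjusted p = 0.0003) and -0.58 for Acat1 (limma adjusted p = 0.000392). All 3 were without overlap between the groups, as were 21.1% of tested genes in this direction. The 3 comparisons share their samples in pairs, so these values do not add independent evidence. In whole cortex, fewer cells of a type and less RNA per cell cannot be told apart.

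**Figure D2:**
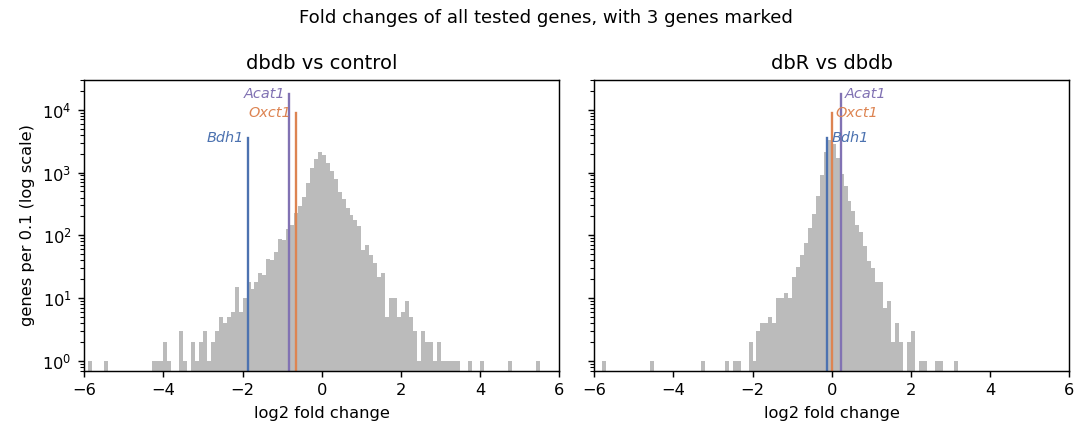
Histogram of the log2 fold changes (x axis) of all 14537 tested genes in bins of 0.1 (y axis, number of genes on a log scale), for dbdb vs. control and dbR vs. dbdb. Vertical lines mark Bdh1, Oxct1 and Acat1, and their heights only separate the labels; in dbdb vs. control Bdh1 is at -1.86, and in dbR vs. dbdb all 3 lie between -0.11 and 0.24.

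The files divide the 3 genes into 7 mRNA transcripts, 4 of Bdh1, 2 of Oxct1 and 1 of Acat1. In dbdb vs. control, 5 of the 7 were called lower and 1 higher, where 5.07% and 4.51% of the 29362 tested transcripts were called lower and higher. In dbR vs. dbdb 0 of the 7 were called by limma, with 0.017% called among all transcripts, and only the Acat1 transcript had an unadjusted p under 0.05, of 0.00719, as had 10.5% of all transcripts. In dbR vs. control 4 of the 7 were called lower and 1 higher, against 4.51% and 3.99% of all transcripts.

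The largest share of the Bdh1 signal, 36.3% to 65.3% in the 9 libraries, was assigned to ENSMUST00000089759, which starts at the upstream site, at base 31422280 of chromosome 16. It read 26.5, 23.9 and 44.1 FPKM in control, 6.31, 7.02 and 6.96 FPKM in dbdb and 8.80, 4.06 and 5.21 FPKM in dbR mice, and fell by 2.15 in dbdb vs. control (SE 0.30, limma adjusted p = 0.00338). The transcript from the downstream site, ENSMUST00000115227 at base 31428748, read 14.8, 14.1 and 20.6 FPKM in control, 4.15, 4.22 and 6.23 FPKM in dbdb and 4.51, 3.88 and 4.11 FPKM in dbR mice. It fell by 1.74 (SE 0.19, limma adjusted p = 0.00122). Transcripts of both start sites whose sequences are printed above were thus lower in db/db mice.

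The opposite direction was seen for a minor Bdh1 transcript, ENSMUST00000115226, which starts at base 31429299. It was at or under 0.00996 FPKM in all control mice and read 0.906, 0.670 and 1.61 FPKM in dbdb and 0.415, 2.03 and 1.94 FPKM in dbR mice. Its share of the Bdh1 signal was at most 0.0198% in control, between 5.13% and 10.1% in dbdb and between 2.82% and 18.1% in dbR mice. The fitted rise of 3.41 (SE 0.57, limma adjusted p = 0.00847) depends on the 0.1 added to each value, because control mice were near 0. These 3 transcripts share the same 6 coding exons and a coding length of 1029 bases, so the division between them rests on their first exons and 3′ ends. The remaining one, ENSMUST00000149039 at base 31436091, read 8.87, 0.479 and 2.81 FPKM in control mice and 0.982 to 1.55 FPKM in all db/db mice, and was not called (-0.90, SE 0.81, limma adjusted p = 0.563).

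**Figure D3:**
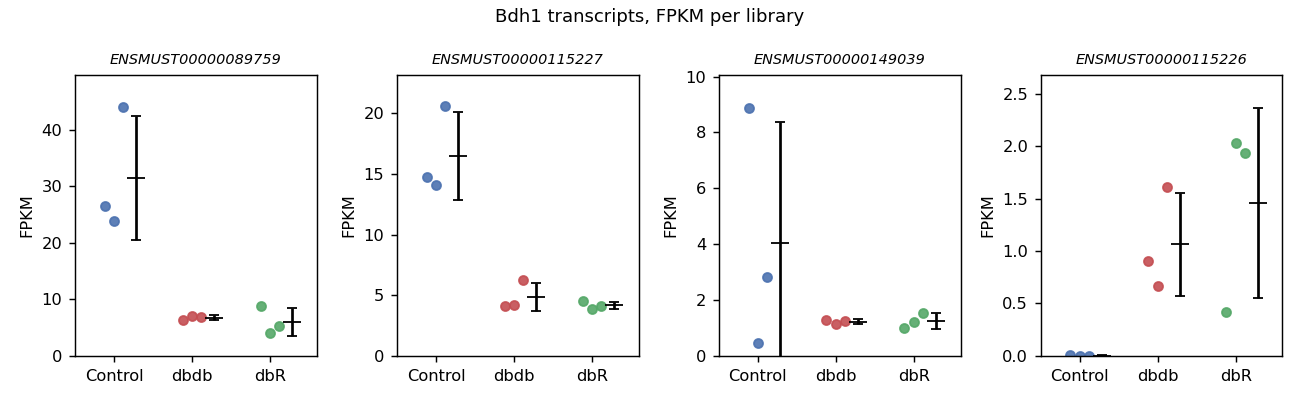
FPKM (y axis, linear from 0, scaled separately for each panel) of the 4 Bdh1 transcripts in each control, dbdb and dbR library (x axis). Points are mice and black bars are the mean ± SD of 3 mice; the lower end of the control bar of ENSMUST00000149039 falls below 0 and is not drawn. The 2 main transcripts are lower in every db/db mouse, and ENSMUST00000115226 is near 0 in control mice.

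Oxct1 had 2 coding transcripts that differ by 1 coding exon. The full one, ENSMUST00000110690, has 17 coding exons and held 87.8% to 93.7% of the Oxct1 signal in the 9 libraries. The other, ENSMUST00000138927, skips the 16th, chr15:4147565-4147666, whose 102 bases make 34 whole codons. The skipped exon is printed in capitals between 30 coding bases of the exons on either side, since it is what separates the 2 transcripts.
Oxct1 exon 16 with its flanks: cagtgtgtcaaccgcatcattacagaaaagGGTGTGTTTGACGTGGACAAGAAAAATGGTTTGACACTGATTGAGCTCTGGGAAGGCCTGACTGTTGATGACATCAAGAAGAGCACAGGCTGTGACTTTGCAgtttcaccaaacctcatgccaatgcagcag
The full transcript read 516, 511 and 562 FPKM in control, 331, 331 and 363 FPKM in dbdb and 333, 327 and 361 FPKM in dbR mice, and fell by 0.63 in dbdb vs. control (SE 0.07, limma adjusted p = 0.00121). The shorter one read 51.8, 41.0 and 78.1 FPKM in control, 27.0, 32.2 and 25.0 FPKM in dbdb and 22.2, 35.2 and 29.99 FPKM in dbR mice. It fell by 0.97 in dbdb vs. control (SE 0.24, limma adjusted p = 0.0408) and was not called in dbR vs. control (-0.94, limma adjusted p = 0.0509). The intervals of the 2 changes in dbdb vs. control, -0.79 to -0.48 and -1.53 to -0.42, overlap. Acat1 had the single transcript ENSMUST00000034547, with 12 exons and a coding length of 1272 bases.

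Reads of these genes can be shared with other annotated RNAs. Oxct1 overlaps the antisense genes BC037032 and Gm15632, and Bdh1 overlaps the antisense Gm15743, whereas no annotated gene overlaps Acat1. BC037032 read 0.756 to 1.62 FPKM over the 9 libraries, against at least 355.5 FPKM for Oxct1. The libraries kept strand, but whether strand was used in quantification is not given in the sources used here.

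Other genes of ketone body metabolism and transport were described as a list of 16, of which 14 passed the filter. In dbdb vs. control 4 of the 14 rose and 2 fell, with a median change of 0.22 against -0.00 for all genes, of which 13.1% rose and 13.4% fell. In dbR vs. dbdb 0 of the 14 were called by limma and 0 had an unadjusted p under 0.05, against 0.743% and 17.5% of all genes, with a median of 0.00, and in dbR vs. control 4 rose and 2 fell, with a median of 0.14, where 12.3% of all genes rose and 11.8% fell.

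FPKM is per length, so levels of the 3 genes can be set beside each other. In control, dbdb and dbR mice alike Oxct1 was the highest and Bdh1 the lowest, and in no group did neighbours in the order Oxct1, Acat1 and Bdh1 overlap.

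**Figure D4:**
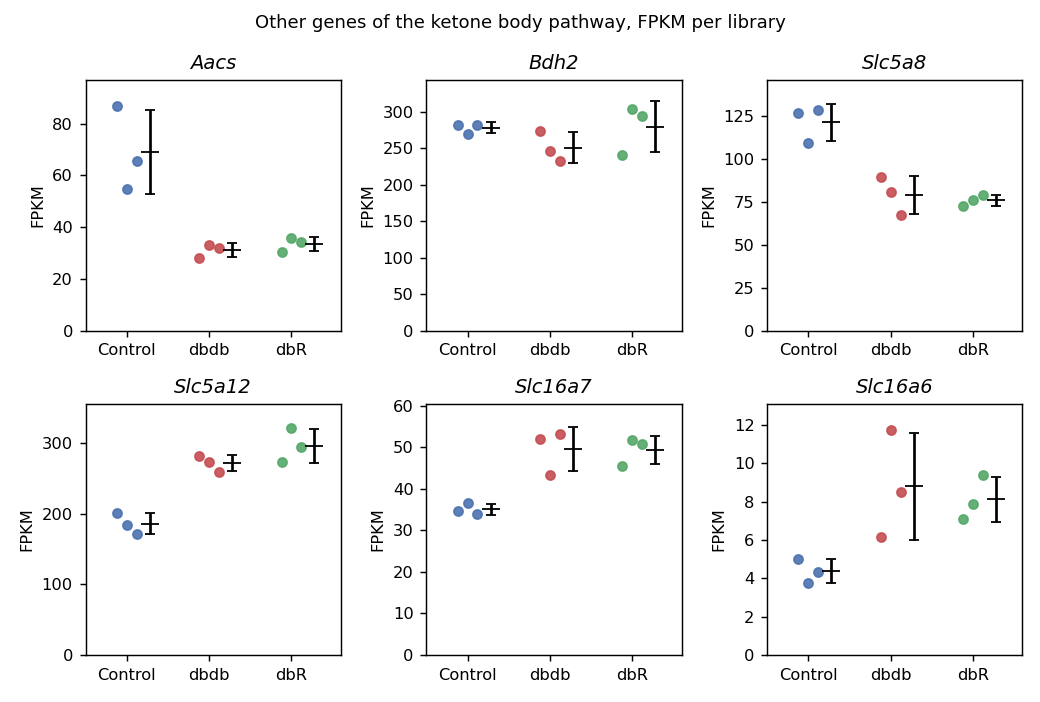
FPKM (y axis, linear from 0, scaled separately for each panel) of Aacs, Bdh2, Slc5a8, Slc5a12, Slc16a7 and Slc16a6 in each control, dbdb and dbR library (x axis). Points are mice and black bars are the mean ± SD of 3 mice. Aacs and Slc5a8 are lower in every db/db mouse than in any control mouse, Slc5a12, Slc16a7 and Slc16a6 are higher, and Bdh2 overlaps between the groups.

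Among genes of use outside mitochondria, Aacs, which activates acetoacetate in the cytosol for lipid synthesis, fell. It read 86.9, 54.9 and 65.7 FPKM in control, 27.9, 33.1 and 32.1 FPKM in dbdb and 30.4, 35.8 and 34.3 FPKM in dbR mice, a change of -1.13 in dbdb vs. control (SE 0.15, limma adjusted p = 0.000476) and 0.11 in dbR vs. dbdb. None of the relatives of the 3 genes was called lower. Bdh2, a cytosolic dehydrogenase, was at 278 ± 7.49 FPKM in control and 251 ± 20.6 FPKM in dbdb mice (SD, n = 3), with a change of -0.15 (interval -0.36 to 0.06, limma adjusted p = 0.279). Acat2, the cytosolic thiolase, differed by -0.11 (interval -0.28 to 0.07, limma adjusted p = 0.356). Acat3, its mouse neighbour on chromosome 17, rose by 0.33 (limma adjusted p = 0.0204) from 20.4 ± 2.25 to 25.7 ± 1.39 FPKM (SD, n = 3), and lost the call without control replicate 1 or 2 or dbdb replicate 1 or 2 (adjusted p up to 0.0705). Acat2 and Acat3 are near-identical copies, so reads may be divided between them and both values are uncertain. Oxct2a, a relative of Oxct1, and Hmgcll1 were at or under 0.813 FPKM in every library and were not called, and Oxct2b was under the filter.

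Transporters of ketone bodies and other monocarboxylates moved in both directions. Slc5a8, a sodium-coupled carrier of the apical proximal tubule, fell by 0.62 (limma adjusted p = 0.00201), from 121 ± 10.8 to 79.3 ± 11.1 FPKM. Slc5a12, its lower-affinity relative, rose by 0.55 (limma adjusted p = 0.00106), from 186 ± 15.2 to 271 ± 11.1 FPKM. Slc16a7, which encodes MCT2, rose by 0.49 (limma adjusted p = 0.00246) and Slc16a6 by 0.95 (limma adjusted p = 0.00823), and both kept this direction in dbR vs. control (0.49 and 0.88). Slc16a1, which encodes MCT1, was not called (0.33, interval 0.05 to 0.61, limma adjusted p = 0.0766), but passed the threshold in 3 of 18 alternatives, and Slc16a3 (0.25) and Bsg (-0.17), the chaperone of these carriers, were not called either. Of the receptors of ketone bodies and short fatty acids, Ffar3 was at or under 0.588 FPKM in every library and was not called, and Hcar2 was under the filter.

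**Figure D5:**
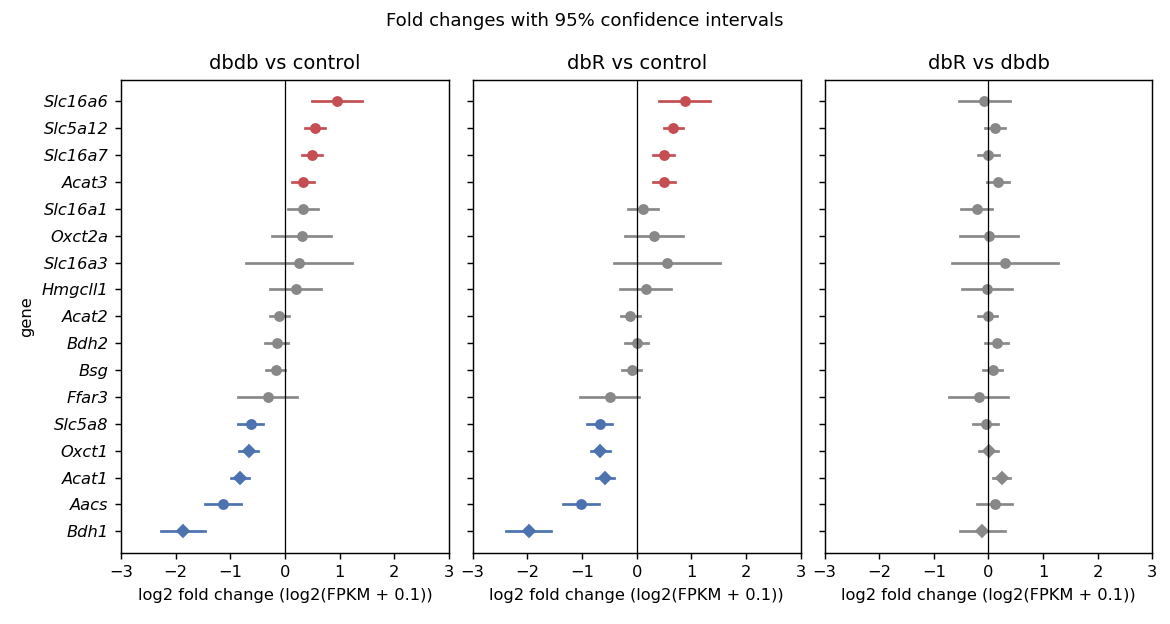
log2 fold changes on the log2(FPKM + 0.1) scale (x axis) with 95% confidence intervals of the 3 genes (diamonds) and of the 14 tested pathway genes (circles), each on its own row, for dbdb vs. control, dbR vs. control and dbR vs. dbdb. Red marks genes called higher, blue those called lower and grey those not called; Bdh1, Aacs, Acat1, Oxct1 and Slc5a8 are blue in both comparisons with control, and no gene is coloured in dbR vs. dbdb.

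Genes of the neighbouring steps were mostly not called in dbdb vs. control. Among 12 genes of leucine and isoleucine breakdown, which feed acetoacetate and the substrate of ACAT1, 1 rose and 2 fell, where 13.1% of all genes rose and 13.4% fell. Ivd, isovaleryl-CoA dehydrogenase of leucine breakdown, read 112, 104 and 116 FPKM in control and 69.6, 70.7 and 68.3 FPKM in dbdb mice, a change of -0.67 (limma adjusted p = 5.75e-05). Mccc2, a carboxylase subunit of the same route, fell by 0.22 (limma adjusted p = 0.0312), and Bcat2, the mitochondrial transaminase that starts it, rose by 0.63 (limma adjusted p = 0.000631). Of 6 genes of fatty acid oxidation 2 rose, Acaa2, the thiolase of its last step, by 0.93 (limma adjusted p = 0.000944) and Hadha by 0.24 (limma adjusted p = 0.0106). Of 16 citric acid cycle genes only Ogdh was called, 0.27 higher (limma adjusted p = 0.0459). In dbR vs. dbdb 0 genes of these 3 lists were called by limma. An unadjusted p under 0.05 was found there for 6 of the 12 genes of leucine and isoleucine breakdown, whose median change was 0.09, for 2 of the 6 of fatty acid oxidation and for 0 of the 16 of the citric acid cycle, against 17.5% of all genes. In dbR vs. control 1 of the 12 genes of leucine and isoleucine breakdown rose (Bcat2) and 1 fell (Ivd), where 12.3% of all genes rose and 11.8% fell. Of the 6 of fatty acid oxidation Acaa2 and Hadha rose and Cpt2, which carries out the last step of the carnitine shuttle, fell by 0.36 (limma adjusted p = 0.00578). Of the 16 of the citric acid cycle 0 were called by limma and 1 had an unadjusted p under 0.05. Mccc2 (-0.04, limma adjusted p = 0.681) and Ogdh (0.11, limma adjusted p = 0.385) were not called there.

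Of 7 regulators of ketone body synthesis, 5 passed the filter and 1 was called in dbdb vs. control, where 26.4% of all genes were called. Ppara, the nuclear receptor that turns on genes of fatty acid oxidation and ketone body synthesis in fasting, read 37.0, 35.0 and 39.9 FPKM in control, 68.3, 67.7 and 56.6 FPKM in dbdb and 50.3, 52.6 and 52.0 FPKM in dbR mice. It rose by 0.78 in dbdb vs. control (limma adjusted p = 0.000151), and its change in dbR vs. dbdb was -0.31 (limma adjusted p = 0.0955). Pparg, the receptor that rosiglitazone binds, is named after its values were seen, and was at or under 2.26 FPKM in every library and not called in any comparison. Its change was -1.22 in dbdb vs. control (interval -2.20 to -0.25, limma adjusted p = 0.0635). In dbR vs. dbdb it was 0.87 (interval -0.10 to 1.84, limma adjusted p = 0.336). Its dbdb mice were all below its control mice, as for 21.2% of tested genes. Its dbR mice were all above its dbdb mice, as for 10.7%.

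Genes whose pattern over the 9 libraries was most like each of the 3 were found by Pearson's r of log2(FPKM + 0.1), given as a description, since all points share the contrast between groups. For Bdh1 they included Cndp2 (r = 0.992), Tmco3, Cmtm6 and Cyp7b1. For Oxct1 they were Cd36 (r = 0.997), the fatty acid carrier, which averaged 255 FPKM in the control group, 36.7 in dbdb and 37.7 in dbR, and then Dnajc22, Aldh3a2, Sepp1 and Akr1c14. For Acat1 they were Lpl (r = 0.995), lipoprotein lipase, at 157, 44.8 and 60.7 FPKM, and then Snx7, Ces1f, 1700021F05Rik and Mien1. The 3 genes were not each other's nearest: Oxct1 ranked 19th among 14536 genes for Bdh1 (r = 0.984), and Acat1 ranked 330th for Oxct1 (r = 0.946) and 489th for Bdh1 (r = 0.914).

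The 10 proximal tubule markers, such as Lrp2 and Slc34a1, were all measured. They summed to 4999 to 5847 FPKM in control, 4711 to 5927 FPKM in dbdb and 5768 to 5985 FPKM in dbR mice. No list of medulla markers was used, so how cleanly the cortex was separated was not tested. In dbdb vs. control 1 of the 10 rose and 1 fell, where 13.1% of all genes rose and 13.4% fell, and in dbR vs. control 2 rose and 1 fell. An unadjusted p under 0.05 from limma was found for 7 of the 10 in dbdb vs. control, so these markers were not all stable. The share of all genes at that threshold is not given here. Markers of other cell types moved as well in dbdb vs. control. All 4 distal tubule markers rose (summed 196 to 219 FPKM in control and 445 to 552 FPKM in dbdb mice), as did 5 of 6 collecting duct markers (106 to 124 and 159 to 247 FPKM) and 2 of 4 podocyte markers (64.4 to 73.8 and 76.6 to 81.1 FPKM). All 4 endothelial markers fell (90.0 to 98.7 and 63.3 to 69.1 FPKM), and 3 of 4 macrophage markers fell (27.5 to 32.1 and 13.0 to 21.2 FPKM). Adipocyte markers summed to at most 0.756 FPKM in any library, with Adipoq and Plin1 listed at 0 in every dbdb mouse. Of the 4 thick ascending limb markers 0 were called by limma and 1 had an unadjusted p under 0.05 (532 to 659.9 and 536 to 810.4 FPKM). Of 4 liver markers Alb and Ttr rose, while the 4 summed to 36.2 to 56.1 FPKM in control and 29.2 to 46.2 FPKM in dbdb mice. In dbR vs. control 3 of 4 thick ascending limb markers rose, as did all 4 of the distal tubule, 5 of 6 of the collecting duct, 2 of 4 of podocytes and again Alb and Ttr, where 12.3% of all genes rose and 11.8% fell. There 1 of 4 macrophage markers fell, and of the 4 endothelial markers 0 were called by limma and 0 had an unadjusted p under 0.05. Endothelial genes, 2 of 4, and collecting duct genes, 1 of 6, rose in dbR vs. dbdb, where 0.743% of all genes were called. The part of these shifts in the changes of Bdh1, Oxct1 and Acat1 was not tested.

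Across the libraries, relative depth lay between 0.914 and 1.14 of control replicate 1 and mitochondrial transcripts held 26.9% to 32.8% of the summed mRNA FPKM. That sum was 675346 to 730057 in control, 594838 to 647995 in dbdb and 595252 to 702217 in dbR mice. Every control library was thus above every dbdb library, and the main fit did not scale to these sums. Read counts were not used, so no counting interval is given. Lepr, the gene that carries the db mutation, was at 1.05 to 1.23 FPKM in control and 0.304 to 0.652 FPKM in all db/db mice, without overlap between the genotypes. The db mutation changes splicing and does not delete the gene, so this level is no full check of the genotype.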

How the data were processed

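Renal cortex RNA of 3 control, 3 dbdb and 3 dbR mice was depleted of ribosomal RNA and sequenced in strand-specific libraries. The authors aligned reads to GRCm38.p2 with TopHat 2.0.9, assembled transcripts with Scripture and Cufflinks 2.1.1, and deposited FPKM per transcript, already divided by length and mapped fragments. The division of a gene's reads between transcripts is the estimate of Cufflinks.

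FPKM was summed over the 50660 mRNA transcripts of 21950 genes. Values were tested as log2(FPKM + 0.1) for genes with a mean of at least 0.1 FPKM, with limma 3.58.1 (R 4.3.3, variance trend, two-sided) in 1 model of 9 libraries, with Benjamini-Hochberg adjustment over all tested genes. This scale understates changes of low genes. The fit was tested on simulated data of 14537 genes, and of 200 genes changed by 1 (log2) it recovered 76% for dbdb vs. control, and 74% for dbR vs. dbdb. Transcripts were fitted likewise. Relative depth came from genes with 1 transcript and at most 0.5 FPKM.

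Named are the 3 genes and their transcripts, every gene of the list of 16, called genes of the other lists (at most 5 each) and the 5 genes most like each of the 3. A few further genes are left out of the text. The genes, lists and tests were chosen with earlier results of these data known. Exons came from GENCODE for GRCm38, where 50107 transcript identifiers matched, and start sites from RefSeq (GRCm38.p6). Alternatives were other pseudocounts, filters, scalings, fits, a replicate block and leaving out each library. Values of assembled lncRNAs entered only the fit of mRNA and lncRNA genes together. Python 3.11.15, numpy 2.4.6, pandas 2.3.3 and matplotlib 3.10.9 were used.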

Additional observations from a re-analysis of the deposited data

How the results depend on the processing

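The calls of Bdh1, Oxct1 and Acat1 in dbdb vs. control and dbR vs. control kept their direction and their side of the threshold under all 18 alternatives, and 0 of the 3 was called in dbR vs. dbdb under any of them. Over all alternatives the change in dbdb vs. control ran from -2.15 to -1.66 for Bdh1, from -0.86 to -0.66 for Acat1 and from -0.71 to -0.51 for Oxct1. The alternative with mitochondrial genes left out also scaled the remaining FPKM of every library to the same sum, which the main fit did not do. The effects of these 2 steps were not separated. With both, the median of all genes shifted to 0.15 in dbdb vs. control, to -0.06 in dbR vs. dbdb and to 0.09 in dbR vs. control. The share of higher calls then went from 49.5% to 78.3%, from 75.9% to 48.6% and from 51.1% to 70.5%, and 75th percentile scaling gave 62.3% in dbR vs. control. In dbdb vs. control Bdh1 was then at -1.71, Acat1 at -0.66 and Oxct1 at -0.51, or -1.86, -0.81 and -0.65 relative to that median.

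Differences near 0 changed sign. For Oxct1 in dbR vs. dbdb the value was -0.0629 with mitochondrial genes left out, -0.0989 with quantile normalization, -0.0035 with the most abundant transcript and between -0.0407 and 0.0353 when 1 library was left out. With mitochondrial genes left out, Acat2 was at 0.053 and Bdh2 at 0.009 in dbdb vs. control, and Bsg at 0.0056 in dbR vs. control. Without 1 library, Bdh2 in dbR vs. control ran from -0.0623 to 0.108.

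The number of genes called in dbR vs. dbdb, 108, was 203 with 75th percentile scaling, 234 with quantile normalization, 166 with a mean of at least 1 FPKM, 31 with no filter, 18 with no variance trend, 22 with only the 6 libraries compared and 49 with the most abundant transcript. It was 64 mRNA genes with mRNA and lncRNA genes in 1 adjustment, a choice made after seeing the data. Leaving out 1 library gave 2 to 141 (2 without dbR replicate 2, 10 without dbR replicate 3, 31 and 36 without dbdb replicate 2 or 1, and 70 without dbR replicate 1). The cause was not tested. With the replicate block, 3345, 23 and 3030 genes were called in dbdb vs. control, dbR vs. dbdb and dbR vs. control, Slc16a1 passed the threshold in dbdb vs. control (adjusted p = 0.0241), and Bdh1, Oxct1 and Acat1 kept their calls. Libraries with the same number did not deviate together (r between -0.17 and 0.06 over 9 pairs), and 1 of 9 matched best with its own number, so the numbers were not taken as pairs.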
